A study of Mus musculus with 26 samples.

Results

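The EZH2 positions and the H3K27me3 positions of mouse embryonic fibroblasts (MEFs) labelled ATRX KD were compared with each other. EZH2 is the enzyme that puts methyl groups on lysine 27 of histone H3, and H3K27me3 is the trimethylated product. Both were profiled by CUT&RUN, in which an antibody directs a nuclease to its target in intact nuclei and the released DNA is sequenced. A position was kept when a peak of replicate 1 overlapped a peak of replicate 2 by 1 bp or more. This left 4134 EZH2 positions and 3163 H3K27me3 positions, 7297 in all, out of 26046 peaks in the 4 ATRX KD lists and 272147 peaks in the whole series. Of the peaks in replicates 1 and 2, 76.9% and 58.2% overlapped the other replicate for EZH2, and 43.7% and 49.9% for H3K27me3. No measured expression entered the choice of positions.

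The study compared female MEFs of 3 kinds. WT cells were the parental line. ATRX KD cells were made with an shRNA against Atrx and selected with puromycin, and ATRXΔRBR cells were a CRISPR clone without the RNA-binding region of ATRX. Each kind had 2 EZH2 lists, 2 H3K27me3 lists and 2 RNA-Seq libraries, and the values below are those of ATRX KD unless another kind is named. The study describes its sequencing replicates as biological, but the sources used here do not say whether they were separate cultures, so p-values measure the spread between these libraries. With 2 lists against 2, an exact permutation test cannot go below p = 0.3333.

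EZH2 is the catalytic subunit of Polycomb repressive complex 2 (PRC2), with SUZ12, EED and RBBP4 or RBBP7 as its core partners. H3K27me3 is bound by EED, which stimulates the enzyme, and by the CBX subunits of PRC1. In mammalian cells PRC2 is known to sit at CpG islands of silent developmental genes, and H3K27me3 spreads from them into broad domains, which include the inactive X chromosome of female cells. PRC1 and PRC2 are known to keep such genes silent once other factors have turned them off.

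In the RNA-Seq libraries labelled ATRX KD, Atrx itself was not lower. Its level was 331 and 512 TPM in the 2 libraries labelled ATRX KD and 233 and 141 TPM in the 2 WT libraries, where TPM (transcript abundance scaled to a fixed library total) is a level scaled for gene length. From the counts, the log2 fold change of Atrx was -0.15 ± 0.21 (SE; adjusted p = 0.60 by the quasi-likelihood test of edgeR), so the RNA does not show the knockdown, and 1 other gene overlaps Atrx on the same strand. The study describes these cells as depleted of ATRX. It shows a western blot of ATRX and DAXX in WT and ATRX KD cells, and reports that DAXX protein was decreased too. The protein is not measured in the files used here. The sums of estimated counts were 9051693 and 21723647 in ATRX KD and 13320635 and 11856636 in WT. The sources used here give no sequencing batch for the ATRX KD libraries, so a batch and the knockdown cannot be told apart. Fibroblast markers summed to 18922 and 19161 TPM in ATRX KD and to 13968 and 11668 TPM in WT, although Thy1 and Lum were at 0 in all 4 libraries and Dcn was at 0 in both ATRX KD libraries. The sum rests on a few abundant genes, and of 12 fibroblast markers tested 3 were higher and 4 lower in ATRX KD, with a median log2 fold change of -0.03. Keratinocyte, endothelial, skeletal muscle and germ cell markers summed to less than 1 TPM in each ATRX KD library. Macrophage and blood markers summed to 14.6 and 12.7 TPM against 7.56 and 11.4 in WT, and neural markers to 89.6 and 90.04 TPM against 109 and 105. The part of these levels in the results was not tested.

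The sequences under 5 positions show the range of DNA found in the comparison. Each is 300 bases around the midpoint of a replicate 1 peak, read from the mm10 (GRCm38) genome 5′ to 3′ on the strand given, with CpG dinucleotides in capitals. The EZH2 peak at Uchl1 overlaps an H3K27me3 peak. Those at Gins2 and Pcgf1 do not. The peak upstream of Pde3b holds H3K27me3 without a reproducible EZH2 peak, and the last position had the largest −log10 q of both targets.
Uchl1, EZH2 with H3K27me3, chr5:66675949-66676248, strand +: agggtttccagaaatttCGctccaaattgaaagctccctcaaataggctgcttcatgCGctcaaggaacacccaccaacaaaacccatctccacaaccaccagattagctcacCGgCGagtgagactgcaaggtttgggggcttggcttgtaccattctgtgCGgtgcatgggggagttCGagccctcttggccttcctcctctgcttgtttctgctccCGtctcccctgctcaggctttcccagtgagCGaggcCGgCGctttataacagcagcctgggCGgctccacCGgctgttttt
Gins2, EZH2 alone, chr8:120589133-120589432, strand -: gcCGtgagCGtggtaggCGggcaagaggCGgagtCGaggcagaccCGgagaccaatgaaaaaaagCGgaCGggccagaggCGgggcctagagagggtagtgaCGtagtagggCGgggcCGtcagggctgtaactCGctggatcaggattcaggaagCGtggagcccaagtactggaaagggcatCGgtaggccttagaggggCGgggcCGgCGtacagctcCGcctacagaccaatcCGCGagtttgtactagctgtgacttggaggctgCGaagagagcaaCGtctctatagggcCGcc
Pcgf1, EZH2 alone, chr6:83078333-83078632, strand +: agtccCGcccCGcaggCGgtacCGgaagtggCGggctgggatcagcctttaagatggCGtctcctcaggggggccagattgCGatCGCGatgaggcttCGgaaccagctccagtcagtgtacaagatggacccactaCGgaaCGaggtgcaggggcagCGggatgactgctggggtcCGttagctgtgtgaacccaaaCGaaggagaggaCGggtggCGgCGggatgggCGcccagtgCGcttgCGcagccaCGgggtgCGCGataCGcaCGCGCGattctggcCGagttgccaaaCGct
Pde3b, H3K27me3 alone, chr7:114413105-114413404, strand +: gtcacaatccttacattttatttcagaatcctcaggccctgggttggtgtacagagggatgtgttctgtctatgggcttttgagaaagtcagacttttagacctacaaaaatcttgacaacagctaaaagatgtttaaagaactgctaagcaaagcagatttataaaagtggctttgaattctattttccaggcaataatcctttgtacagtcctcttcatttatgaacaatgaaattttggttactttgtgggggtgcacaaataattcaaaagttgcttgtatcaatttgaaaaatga
Highest position, EZH2 with H3K27me3, chr9:35305260-35305559, strand +: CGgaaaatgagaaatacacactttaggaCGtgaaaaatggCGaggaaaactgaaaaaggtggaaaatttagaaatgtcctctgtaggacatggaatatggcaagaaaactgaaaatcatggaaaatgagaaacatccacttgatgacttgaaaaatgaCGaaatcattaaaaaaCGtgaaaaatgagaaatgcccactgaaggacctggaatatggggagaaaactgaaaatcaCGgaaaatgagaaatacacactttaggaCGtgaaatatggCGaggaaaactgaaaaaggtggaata
The windows of Gins2 and Pcgf1 hold 24 and 30 CpG, and that of Uchl1 holds 12. The Pde3b window holds 0 CpG and has a GC content of 35.3%. The window of the highest position holds 8 CpG, has a GC content of 36.3% and is repeat-masked over 100% of its length. The windows of Uchl1 and Gins2 lie over the TSS of their genes, that of Pcgf1 lies inside the gene, and that of Pde3b lies before it.

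H3K27me3 peaks were wider than EZH2 peaks. The median width of a list was 418 and 448 bp for EZH2 and 741 and 750 bp for H3K27me3. The lists did not overlap in this value, with means of 433 ± 21.2 bp and 745.5 ± 6.36 bp (SD, n = 2 lists each), a ratio of 1.72 and an exact two-sided permutation p of 0.3333, the smallest that 2 against 2 can give. The middle 80% of peaks ran from 213 to 1014 bp and from 219 to 1037 bp in the EZH2 lists, against 315 to 1602 bp and 324 to 1612.5 bp in the H3K27me3 lists. Over the reproducible positions the median was 453 bp for EZH2 and 935 bp for H3K27me3.

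**Figure D1:**
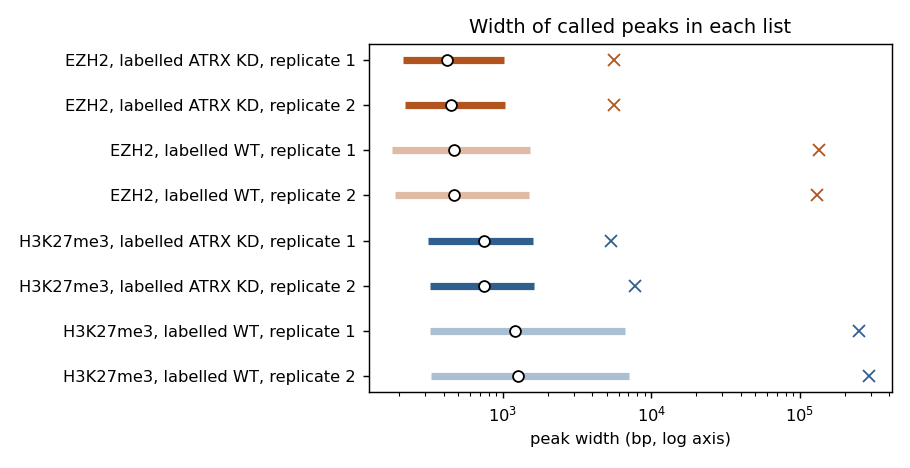
Width in bp, on a log axis, of the called peaks in each EZH2 and H3K27me3 list of ATRX KD and WT, with the median (circle), the middle 80% of peaks (bar) and the widest peak (cross). The medians of the ATRX KD lists are 418 and 448 bp for EZH2 and 741 and 750 bp for H3K27me3, and the WT H3K27me3 lists reach far wider peaks than those of ATRX KD.

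Both targets lacked the broadest domains that WT lists hold. Peaks of 5 kb or more numbered 2 and 2 in the ATRX KD EZH2 lists and 2 and 4 in the H3K27me3 lists, against 299 and 292 and against 5192 and 6008 in WT. The widest H3K27me3 peak was 5308 and 7749 bp long in ATRX KD and 250552 and 289915 bp long in WT. H3K27me3 peaks covered 6.37 and 5.597 Mb in ATRX KD and 103 and 118 Mb in WT, and EZH2 peaks covered 2.95 and 4.02 Mb against 18.1 and 15.2 Mb. The lists also differ in number of peaks, with 5376 and 7093 for EZH2 and 7241 and 6336 for H3K27me3 in ATRX KD, and the depth of the libraries cannot be read from them. How far depth sets these widths was not tested.

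The 5 widest EZH2 positions and 4 of the 5 widest H3K27me3 positions held no H3K27me3 peak in WT. The widest for both lay over Gm26917, Gm42418 and AY036118 on chromosome 17, at 5581 bp for EZH2 and 5308 bp for H3K27me3. Next for H3K27me3 came a position of 5297 bp over Gm10800 and Gm10801 on chromosome 2 and a stretch of 4950 bp on the mitochondrial genome. Among positions with H3K27me3 in WT, the widest EZH2 peaks were at Tfap2a (3747 bp), between genes on chromosome 9 (3406 bp), and at Emx1 (3390 bp), Tchh (3197 bp) and Col2a1 (3107 bp). The 4 genes encode transcription factors of neural crest and forebrain, a hair follicle protein and the main collagen of cartilage. The widest such H3K27me3 peaks were at Chn2 (4680 bp), Elfn1 (3971 bp), Prdm1 (3896 bp), Kank1 (3817 bp) and Pvalb (3739 bp), and Prdm1 encodes a repressor known from B cell and germ cell development.

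EZH2 peaks lay mostly at transcription start sites (TSSs) and H3K27me3 peaks mostly away from them. The share of peaks within 2 kb of the TSS of any annotated gene was 74.5% and 72.2% in the EZH2 lists and 25.8% and 26.9% in the H3K27me3 lists (73.3% ± 1.66 against 26.3% ± 0.754, SD, n = 2; exact permutation p = 0.3333, the smallest possible). Intergenic peaks made up 12.0% and 13.4% of the EZH2 lists and 43.7% and 42.6% of the H3K27me3 lists. Gene bodies held 13.5% and 14.4% of EZH2 peaks and 30.5% of the H3K27me3 peaks in each list. The values of the lists did not overlap between the targets for any of the 3 places. In WT the shares at TSSs were 52.4% and 57.6% for EZH2 and 17.3% and 17.1% for H3K27me3, so both targets had a higher share there in ATRX KD.

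The distance to the TSS of protein-coding genes separated the targets further. The midpoint of a reproducible EZH2 position was at a median of 256 bp from the nearest such TSS, and 49.7% of midpoints lay within 250 bp. For H3K27me3 the median was 13435 bp, and 2.07% lay within 250 bp. Within 1 kb lay 70.3% of the EZH2 and 12.5% of the H3K27me3 midpoints. In the separate lists the medians were 310.5 and 349 bp for EZH2 and 25038 and 23686 bp for H3K27me3.

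EZH2 positions with and without H3K27me3 also differed in where they sat on the gene, and those without it differed by H3K27me3 in WT. EZH2 positions without an H3K27me3 peak were at a median of 202 bp from the TSS, with 24.9% and 24.7% of all of them in the 200 bp before and the 200 bp after it. Positions shared with H3K27me3 were at a median of 1379 bp, and only 26.97% of those within 2 kb lay upstream, with a median of 434.5 bp into the gene. The median of 1379 bp pools 402 positions with H3K27me3 in WT, at 862.5 bp, and 150 without it, at 33623 bp. Shared positions were also the wider ones, and a wide peak has its midpoint farther from its edge.

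**Figure D2:**
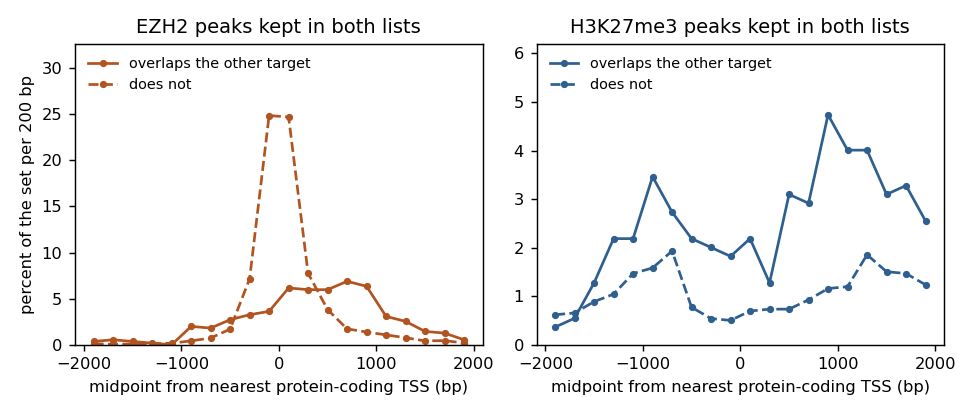
Distance in bp from the midpoint of a position to the nearest protein-coding TSS, as the percent of each set per 200 bp bin, for EZH2 (left) and H3K27me3 (right) positions that overlap the other target (solid) or do not (dashed), on vertical axes of different range. EZH2 positions without H3K27me3 have 24.9% and 24.7% in the bins on both sides of the TSS, and shared EZH2 positions reach at most 6.88%, inside the gene.

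Most EZH2 positions and most H3K27me3 positions were separate. Of the 4134 EZH2 positions, 568 (13.7%) overlapped an H3K27me3 position, and of the 3163 H3K27me3 positions, 564 (17.8%) overlapped an EZH2 position. Without H3K27me3 replicate 1 or 2 the second share was 10.5% or 9.20%, and at a q-value of 0.01 or less the shares were 8.07% and 33.7%. When 50% of a position had to be covered by the other target they were 9.12% and 8.38%, so the order of the targets turned. The shared bases came to 353 kb, which is 14.3% of the bases of EZH2 positions and 10.4% of those of H3K27me3 positions. Of the shared EZH2 positions, 155 (27.3%) lay wholly inside an H3K27me3 position, and a shared EZH2 position was covered over a median of 76.6% of its length. Of the shared H3K27me3 positions, 88 (15.6%) lay wholly inside an EZH2 position, with a median of 46.6% covered.

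Separate positions were far apart. The 3566 EZH2 positions without H3K27me3 were at a median of 166754 bp from the nearest H3K27me3 position, and 356 (10.0% of those on a chromosome that has one) were within 5 kb. For the 2599 H3K27me3 positions without EZH2 the median was 94613 bp, with 383 (14.8%) within 5 kb. When a peak in either list of the other target was enough to call a position shared, 3338 EZH2 positions and 2372 H3K27me3 positions still stood alone.

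The overlap rose with the width of the position. EZH2 positions under 500 bp overlapped H3K27me3 in 6.02% of cases, and those of 2 kb or more in 53.5% (71 positions). H3K27me3 positions overlapped EZH2 in 13.2% of cases under 500 bp and in 39.6% at 2 kb or more. A wider interval has more chance to meet another one, and the part of width was not tested. By place, EZH2 positions at TSSs overlapped H3K27me3 least (10.6%) and intergenic ones most (29.8%), while H3K27me3 positions overlapped EZH2 most at TSSs (30.1%) and least between genes (9.29%). Of the 117 shared intergenic EZH2 positions, 81 held no H3K27me3 in WT, against 42 of the 347 shared at TSSs. Shared EZH2 positions with H3K27me3 in WT numbered 305 of 3267 at TSSs, 61 of 475 in gene bodies and 36 of 392 between genes. With these alone, intergenic positions did not overlap more often than those at TSSs.

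The shared positions fell into 2 kinds by whether WT held H3K27me3 there. At 402 of the 568 shared EZH2 positions WT had a reproducible H3K27me3 peak. They were 927 bp wide in the median, 75.9% lay at a TSS, 98.5% also held EZH2 in WT, and their −log10 q was 2.57 in the median and 13.04 at most. WT held no reproducible H3K27me3 peak at the other 166. These were 642 bp wide, 25.3% lay at a TSS and 48.8% were intergenic, 15.7% held EZH2 in WT, and their −log10 q was 9.04 in the median and reached 178.8. All 54 shared positions with a −log10 q of 20 or more in replicate 1 were of this second kind. The q value of a peak is its MACS2 p-value after correction for multiple tests, and was compared here within 1 list.

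The second kind also overlapped ATRX peaks and repeated DNA. There are ATRX lists from WT and from ATRXΔRBR cells, and none from ATRX KD cells. Of the 166 positions, 41.6% overlapped a reproducible ATRX position of WT, against 0.249% of the 402, and 57.2% overlapped a peak in any ATRX list, against 1.99%. Of the 166, 16 lay outside the assembled chromosomes, 2 of these on the mitochondrial genome. In the 152 with a full window on a chromosome, repeat masking covered 50.9% of the bases, against 7.36% in the 402. The highest position, at chr9:35305110-35305709 over Gm33838, had a fold enrichment of 14.7 and 14.4 and a −log10 q of 178.8 and 178.1 in the EZH2 lists, and a −log10 q of 169.7 and 173.3 in the H3K27me3 lists. The next positions for both targets included intervals within Cers5, Chl1 and Ubqln1. With repeat-masked or unassembled positions left out, 473 of 3902 EZH2 positions (12.1%) and 474 of 2703 H3K27me3 positions (17.5%) were shared. Whether these positions carry EZH2 or a signal common to all antibodies was not tested, since the IgG libraries were not analysed here.

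**Figure D3:**
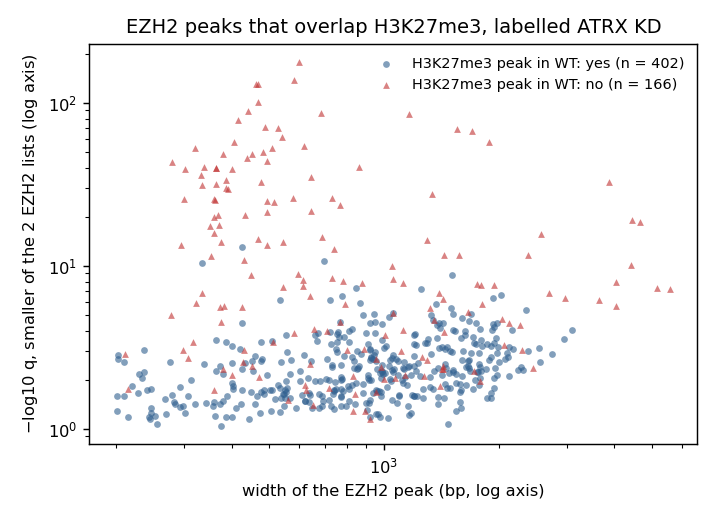
Width in bp of the 568 shared EZH2 positions (replicate 1) against their −log10 q (the smaller of both lists), on log axes, with circles where WT holds H3K27me3 (402) and triangles where it does not (166). No circle passes 13.04, and the points above 20 are all triangles.

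The EZH2 positions that stood alone were of 2 kinds as well. Of the 3566, 2899 had no reproducible H3K27me3 position in WT and 667 had one. The 2899 were narrow (median 400 bp), lay at TSSs in 84.4% of cases and held EZH2 in WT in 91.5%. Their midpoints were at a median of 164 bp from a protein-coding TSS, with 63.4% within 250 bp. Of these positions 64.1% overlapped a peak in an ATRX list, against 5.10% of the 667. The share was 57.2% for the 166 shared positions without H3K27me3 in WT. With reproducible ATRX positions of WT it was 16.9% for the 2899 and 41.6% for the 166. Whether the 2899 carry EZH2 or a signal common to all antibodies was not tested, since the IgG libraries were not analysed here. The 667 were 704 bp wide, lay at a median of 1013 bp from a TSS, and held EZH2 in WT in 99.3% of cases. Their median width was between those of the 2899 and of the shared 402. Their median distance was larger than that of either set, with 862.5 bp for the shared 402. No reproducible H3K27me3 position was found at the 667 in ATRX KD. Of the 667, 502 had no H3K27me3 peak in either ATRX KD list, and the others had a peak that was not reproducible. The ATRX KD lists are shorter, and how far depth decides this was not tested. The ATRX KD H3K27me3 lists also agreed less between replicates, with 43.7% and 49.9% of peaks in the other list, against 79.6% and 66.2% in WT.

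The H3K27me3 positions without EZH2 showed the reverse place. Of the 2599, WT held a reproducible H3K27me3 position at 2029 and not at 570. Of the 570, 29.1% still overlapped an H3K27me3 peak in at least 1 WT list. The 2029 had a median width of 911 bp, 35.9% lay at a TSS and 38.0% held EZH2 in WT. The 570 had a median width of 813 bp, 14.6% lay at a TSS and 54.0% between genes. A peak in an ATRX list overlapped 0.539% of the 2599. Over all positions, 90.4% of EZH2 and 77.1% of H3K27me3 positions of ATRX KD were also reproducible in WT, while 23.2% and 7.74% of WT positions were found in ATRX KD. The WT H3K27me3 positions found again had a median width of 5868 bp, and those not found 1529 bp.

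The share of peaks that met the other target moved in opposite directions against WT. In lists of the same replicate number it was 14.1% and 11.6% for EZH2 in ATRX KD and 21.6% and 23.1% in WT (exact permutation p = 0.3333). For H3K27me3 it was 10.4% and 12.99% in ATRX KD and 9.42% and 7.66% in WT (exact permutation p = 0.3333). Among reproducible positions, the ATRX KD shares of 13.7% and 17.8% stood beside 21.3% and 8.78% in WT and 20.1% and 5.59% in ATRXΔRBR. These shares depend on how many peaks of the other target were called, which was 15596 EZH2 and 28672 H3K27me3 positions in WT.

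On the X chromosome, the H3K27me3 lists of ATRX KD held 3.56% and 3.90% of their peaks, against 7.36% and 7.996% in WT. The EZH2 lists held 2.27% and 2.38% against 1.94% and 1.83%. The lists did not overlap for either target (exact permutation p = 0.3333 for each, the smallest possible). Although the study describes the cells as female, 22 EZH2 and 8 H3K27me3 reproducible positions of ATRX KD lay on chromosome Y. In WT these numbers were 1 and 0, and the source of the Y positions was not tested. Of the genes with peaks at the TSS, those on X were 3 of the 466 with both targets (0.644%), 54 of the 3079 with EZH2 alone (1.75%) and 5 of the 442 with H3K27me3 alone (1.13%), against 4.94% of the genes with neither.

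The base composition of the targets differed as their places did. Over 300 bp at the midpoint, EZH2 positions had a GC content of 62.4% and 7.74 ± 3.72 CpG per 100 bp (SD over 4091 positions), and H3K27me3 positions 45.3% and 1.57 ± 2.17 (3141 positions). Windows of the same length at 21931 annotated protein-coding TSSs, from 250 bases before to 50 after, had 55.2% and 4.73 ± 4.13. EZH2 positions were thus richer in CpG than the average promoter and H3K27me3 positions poorer. The difference was present at TSSs too, where EZH2 positions without and with H3K27me3 had 8.66 and 6.85 CpG per 100 bp, and H3K27me3 positions without and with EZH2 had 1.81 and 3.77.

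Among EZH2 positions the order followed H3K27me3. CpG per 100 bp was 8.22 ± 3.49 at positions with no H3K27me3 in either cell, 7.39 ± 3.70 at those with H3K27me3 in WT only, and 6.71 ± 3.91 at those with it in both, and these ranges overlap widely. It was 3.04 ± 3.54 at the shared positions without H3K27me3 in WT, where 57.2% of the windows consisted mainly of 32-base words that occur more than once in the genome.

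**Figure D4:**
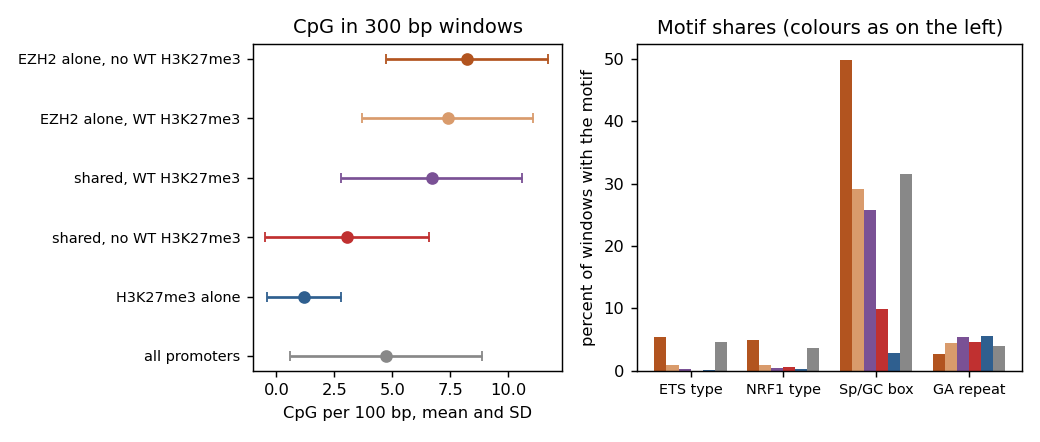
CpG per 100 bp (left, mean and SD over windows) and share of windows with each motif in percent (right), in 300 bp windows at the midpoints of EZH2 and H3K27me3 positions by class, beside protein-coding promoters. EZH2 alone positions without H3K27me3 in WT stand highest at 8.22 CpG per 100 bp and H3K27me3 alone positions lowest at 1.19.

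Of 4 short motifs counted on either strand in these windows, 3 were most frequent at the EZH2 positions without H3K27me3 in either cell. The letters CCGGAAGT, the core bound by ETS factors such as GABPA, were in 5.37% (154) of the EZH2 positions without H3K27me3 in either cell, in 0.249% (1) of the shared positions with H3K27me3 in WT and in 4.70% of promoters. The letters GCGCATGC, the NRF1 core, were in 4.88%, 0.498% and 3.71% of these. GGGCGGG, which Sp and Klf factors bind, was in 49.9%, 25.9% and 31.5%. The run GAGAGAGA went the other way, with 2.68%, 5.47% and 4.004%. The EZH2 alone positions with H3K27me3 in WT held the first 3 motifs in 0.900%, 0.900% and 29.1% of cases, below promoters for each. H3K27me3 positions without EZH2 held the first 3 motifs in 0.193%, 0.270% and 2.82% of cases. The Pcgf1 window printed above holds CCGGAAGT. A GC-rich window has more chance to hold a GC-rich motif, and the shares were not corrected for it. The sets also differ in distance from the TSS. Midpoints within 250 bp of a protein-coding TSS made up 63.4% of the first set and 15.2% of the shared positions with H3K27me3 in WT. The part of this distance in the motif shares was not tested. None of the 4 motifs contains another.

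Between 43.1% and 48.4% of the genes in lists of developmental regulators had a peak, beside 18.2% of all genes. Of 21938 protein-coding genes, 3987 had a reproducible peak of either target within 2 kb of the TSS: 466 had both, 3079 had EZH2 alone and 442 had H3K27me3 alone. Of the homeobox and Pax genes outside the Hox clusters, 46 of 95 had a peak (48.4%), 17 with both, 26 with EZH2 alone and 3 with H3K27me3 alone. For the Hox genes it was 18 of 39 (46.2%), for signalling ligands and antagonists 29 of 63 (46.0%), for bHLH lineage factors 18 of 41, for T-box and Gata genes 10 of 23, and for Forkhead and Sox genes 22 of 51. In WT, 74 of the 95 homeobox and Pax genes and 26 of the 39 Hox genes had both targets. Clustered protocadherins (2 of 57) and olfactory receptors (6 of 1135), which arise from gene families in tandem, had H3K27me3 alone or nothing.

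The named members with both targets are known as regulators of other lineages. Among them were Prox1, which directs lymphatic endothelium, Pou4f1 and Pou3f3 of neurons, Helt of neural precursors, Myod1 of skeletal muscle, and Eomes and Tbx21 of lymphocytes. At Prox1 the EZH2 peaks were 1887 and 1954 bp wide with a fold enrichment of 2.44 and 2.33, and the H3K27me3 peaks 2979 and 2948 bp wide with 1.96 and 1.97. RNA of Prox1, Helt and Myod1 was at 0 in both ATRX KD and both WT libraries, and that of Pou4f1, Pou3f3, Eomes and Tbx21 stayed at or below 0.15 TPM in all 4. Among the ligands, Wnt3, Wnt6, Wnt7a and Gdf6 had both targets, and none passed 0.32 TPM in any library.

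Over the Hox clusters the peaks of ATRX KD were short islands. EZH2 peaks covered 8.004% and 9.18% of the Hoxc cluster and H3K27me3 peaks 4.51% and 3.82%, whereas in WT both targets covered 100% in each list. On Hoxa the coverage by EZH2 was 3.86% and 4.04% in ATRX KD and 43.8% and 41.0% in WT, and by H3K27me3 2.46% and 1.06% against 40.3% and 40.3%. Hoxd held 1.99% and 3.28% by EZH2 and 5.82% and 2.13% by H3K27me3, against 60.9% and 59.7% and against 87.8% and 92.3%. The Hox genes with both targets included Hoxa13, Hoxc11, Hoxd3 and Hoxd4, all at 0 TPM in the 4 libraries. Hoxd3 and Hoxd4 overlap on the same strand and share these peaks.

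Genes with EZH2 alone were expressed, and genes with H3K27me3 were mostly silent. The median level of the 3079 genes with EZH2 alone was 35.35 and 35.5 TPM in the 2 ATRX KD libraries. It was 0 and 0.02 TPM for the 466 genes with both targets, 0 and 0 TPM for the 442 with H3K27me3 alone, and 0.41 and 0.42 TPM for the 17951 with neither. Levels of 1 TPM or more were reached by 88.6% and 88.8% of the genes with EZH2 alone, by 19.4% and 20.2% of those with both, and by 15.7% and 15% of those with H3K27me3 alone, against 46.8% of those with neither in each library. The difference between the classes was many times that between the libraries. No test was run between classes, since genes are not replicates. In bulk RNA, fewer cells with a transcript and less RNA per cell cannot be told apart.

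H3K27me3 in WT divided the EZH2 alone genes by level. The 2762 without H3K27me3 at the TSS in WT had medians of 41.0 and 39.9 TPM, and the 317 with it 0.185 and 0.225 TPM. In WT cells these 2 sets stood at 30.6 and 36.5 TPM and at 0.415 and 0.375 TPM. Levels of 1 TPM or more were reached by 37.0% and 37.3% of the 317 in ATRX KD, between the shares of the genes with both targets and of those with neither. In WT, 312 of the 3079 genes had both targets and 2727 had EZH2 alone. Conversely, of the 1634 genes with both targets in WT, 425 had both in ATRX KD, 312 EZH2 alone, 280 H3K27me3 alone and 617 neither.

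**Figure D5:**
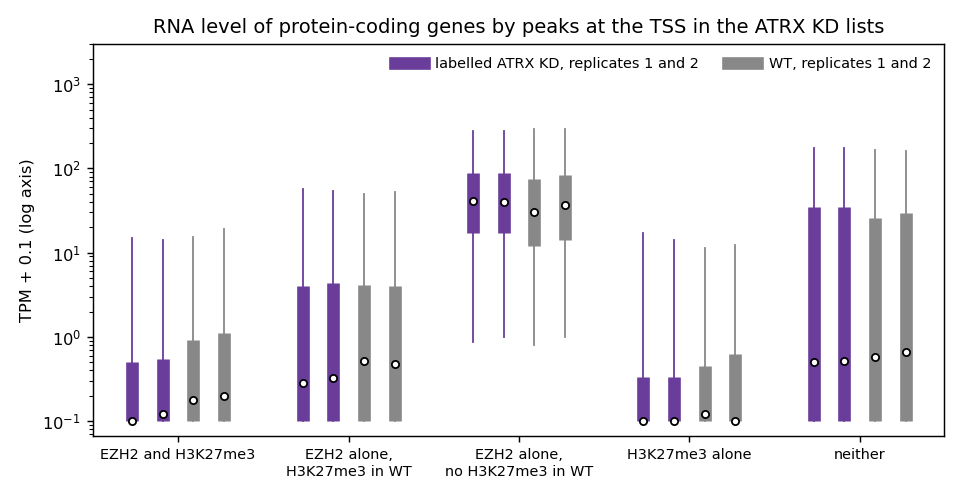
Level of protein-coding genes in TPM by the peaks at their TSS, for each ATRX KD and WT library, on a log axis with 0.1 added, with the median (circle), the range from the first to the last quartile (bar) and the middle 90% of genes (line). Genes with EZH2 alone and no H3K27me3 in WT have medians of 41.0 and 39.9 TPM in ATRX KD, and those with both targets 0 and 0.02.

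Between ATRX KD and WT, 5542 of 16748 genes tested were called by the quasi-likelihood test of edgeR at an adjusted p under 0.05. This is 33.1% of the genes tested, 15.2% higher (2553) and 17.8% lower (2989) in ATRX KD. Of the 12778 protein-coding genes tested, 39.5% were called, 18.4% higher and 21.1% lower. The classes and gene lists hold protein-coding genes only, so the shares below are read against the latter. Of the 3079 genes with EZH2 alone, 2837 were tested, and 488 were higher and 542 lower (36.3% called). The median log2 fold change was -0.02, as over all genes tested. Without WT replicate 1 or 2 the called genes of this class numbered 1651 or 1853, and without ATRX KD replicate 1 or 2 528 or 529. The count over all genes moved likewise, to 8953 without WT replicate 2 and to 3520 and 3194 without ATRX KD replicate 1 and 2.

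In the classes with H3K27me3 most calls were lower, many of them at genes near 0 in ATRX KD. Of the 466 genes with both targets, 207 were tested, and 28 were higher (13.5%) and 84 lower (40.6%). Of the 442 with H3K27me3 alone, 141 were tested, with 17 higher and 46 lower. A gene near 0 in ATRX KD enters the test only through its WT counts. This held for many members: 75 of the 207 and 38 of the 141 had fewer than 10 counts over both ATRX KD libraries, and they gave 52 of the 84 and 22 of the 46 lower calls. Fewer than 10 counts over both WT libraries were found for 26 and 22 of the genes tested, which gave 5 and 3 higher calls. With at least 10 counts asked of every library, which also removes genes that fell to near 0, 21 genes with both targets were higher and 22 lower, and 14 and 14 with H3K27me3 alone, beside 2333 and 2374 over all genes. Over all members the median level was 0 and 0.02 TPM in ATRX KD and 0.08 and 0.10 TPM in WT.

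Among genes with both targets, those with the smallest adjusted p in each direction were named, lower ones first. Uchl1, a deubiquitinating enzyme of neurons, was at 47.6 and 53.6 TPM in ATRX KD and at 493 and 386 TPM in WT, a log2 fold change of -3.44 ± 0.23 (SE; adjusted p = 0.000199 by edgeR). Sirpa, the receptor of CD47, was at 1.54 and 1.87 TPM against 11.7 and 13.4 TPM (-4.00 ± 0.21; adjusted p = 9.7e-05 by edgeR). For both genes the groups lay far apart relative to the difference within a group. Hunk, a protein kinase, was at 0 in both ATRX KD libraries and at 7.05 and 6.58 TPM in WT, which makes it at least 76.1-fold lower when 3 counts per library are taken as the floor. Bhlhe22, a bHLH factor of neurons, was at 0 against 5.13 and 7.22 TPM, at least 45.4-fold lower. Sox2, a factor of neural and pluripotent cells, was at 1.10 and 0.55 TPM against 43.9 and 37.1 TPM (-6.00 ± 0.31; adjusted p = 9.1e-05 by edgeR). Its EZH2 and H3K27me3 peaks lie in the same TSS window without touching, and 1 gene overlaps Sox2 on the same strand.

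Other genes with both targets were higher in ATRX KD. Olfm1, a secreted glycoprotein of the nervous system, was at 67.9 and 68.7 TPM against 11.1 and 11.7 TPM in WT (log2 fold change 2.45 ± 0.13, SE; adjusted p = 9.9e-05 by edgeR). Its EZH2 peaks were 1093 and 1175 bp wide, and its H3K27me3 peaks 1237 and 2138 bp. Iqsec1, an exchange factor for ARF proteins, was at 77.2 and 77.5 TPM against 37.0 and 27.01 TPM, with 3 overlapping genes on its strand. Syt2, a calcium sensor of synaptic vesicles, was at 1.55 and 1.63 TPM against 0.08 and 0.10 TPM. Igf2bp1 and Pip5k1b, each with an overlapping gene, rose by log2 fold changes of 0.98 and 2.41. A reproducible pair of peaks at the TSS was thus found at genes at 0 as well as at genes above 40 TPM. Col2a1, with 1 of the widest EZH2 peaks, was at 0 and 0.02 TPM against 0.92 and 1.21 TPM in WT.

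Among genes with EZH2 alone, those with the smallest adjusted p in each direction were named. Elmo1, which activates Rac with Dock proteins, was at 34.7 and 26.4 TPM against 1.38 and 2.72 TPM in WT (log2 fold change 3.66; adjusted p = 6.2e-05 by edgeR), and 3 genes overlap it. Slco4a1, an organic anion transporter, and Smpd3, a neutral sphingomyelinase, rose by 2.96 and 2.09 on the log2 scale, and Paqr8 and Tuft1 by 2.25 and 1.67. Cyp51 and Msmo1, both enzymes of cholesterol synthesis, had log2 fold changes of -1.68 and -1.74, at 339 and 374 TPM against 782 and 957 TPM for Cyp51. Smarca2, the BRM ATPase of SWI/SNF complexes, was at 11.2 and 8.88 TPM against 52.1 and 56.4 TPM (log2 fold change -2.79), and its TSS holds H3K27me3 in WT. Sspn had the highest −log10 q of the class, 26.9 and 28.6, and fell from 5.63 and 7.6 TPM in WT to 1.24 and 1.67 TPM, with 1 overlapping gene.

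Among genes with H3K27me3 alone, Pde3b, a phosphodiesterase of cyclic AMP, was at 0 in both ATRX KD libraries and at 10.8 and 17.4 TPM in WT, at least 152-fold lower. Its H3K27me3 position is 2825 bp wide, with a fold enrichment of 2.23 and 2.27. Shtn1, Prkg2 and Vldlr, known from axons, cyclic GMP signalling and lipoprotein uptake, had log2 fold changes of -4.62, -2.32 and -5.52. Each EZH2 list held a peak near the start of Vldlr, but the 2 peaks do not overlap. Higher in ATRX KD were Lyn, a Src-family kinase, at 7.56 and 6.94 TPM against 1.00 and 0.54 TPM, Bicc1 (log2 fold change 1.12, 1 overlapping gene) and Soga3, which was at 2.28 and 2.55 TPM against 0 in both WT libraries, at least 11.5-fold higher, with 1 overlapping gene. H2-T23, H2-Q2 and H2-Q4 of the major histocompatibility complex were higher by 1.5, 2.48 and 0.80 on the log2 scale (for H2-Q4 the adjusted p by edgeR was 0.031, and 0.096 without ATRX KD replicate 2), while H2-K1 was at 196 and 193 TPM against 140 and 135 TPM (adjusted p = 0.13 by edgeR). These genes are near copies of each other, and reads may be split among them.

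The genes of the Polycomb machinery carried EZH2 without H3K27me3 or no peak. Of 12 PRC2 genes, Ezh2, Suz12 and Epop had EZH2 alone, and of 21 PRC1 genes 6 had it, among them Bmi1, Pcgf1, Pcgf5 and Cbx8. Of the PRC2 genes 3 were higher and 5 lower in ATRX KD. Ezh2 was at 243 and 236 TPM against 204 and 177 TPM in WT (log2 fold change 0.37 ± 0.11, SE; adjusted p = 0.043 by edgeR), a call made in 6 of 11 settings. Suz12 was at 143 and 141 TPM against 90.2 and 118 TPM, with a log2 fold change from counts of -0.12 (adjusted p = 0.48 by edgeR). Ezh1, the second methyltransferase, and Phf19 rose by 1.26 and 0.83 on the log2 scale, and Aebp2, Mtf2, Phf1, Eed and Rbbp7 had log2 fold changes of -1.07, -0.78, -0.70, -0.54 and -0.47. Phf1 and Eed each have an overlapping gene. Of the 21 PRC1 genes 2 were higher and 5 lower, with Bmi1 at -0.42 and Pcgf5 at -0.55, the latter with 2 overlapping genes. Bmi1 was called in 8 of 11 settings and Pcgf5 in 9. Without ATRX KD replicate 1 or 2 the calls of Ezh2, Eed, Phf1, Rbbp7, Bmi1 and Pcgf5 were lost, with an adjusted p by edgeR from 0.051 (Phf1) to 0.44 (Bmi1).

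The replication, ribosomal and Ink4 and p53 lists held no gene with H3K27me3. A peak was found at 40.0%, 12.8% and 19.2% of their members, beside 18.2% of all genes. EZH2 alone was found at 3079 of all 21938 genes. Of 35 genes of replication origins and the replicative helicase, 14 had EZH2 alone, among them Gins2 and Orc6. Gins2 was at 135 and 126 TPM against 202 and 209 TPM in WT (log2 fold change -0.64 ± 0.12, SE; adjusted p = 0.0066 by edgeR), its EZH2 peaks were 525 and 542 bp wide, and Orc6 had a log2 fold change of -0.60. In this list 1 gene was higher and 12 lower of 35 tested, beside 18.4% higher and 21.1% lower over the protein-coding genes tested. Without ATRX KD replicate 1 or 2 the call was lost for Gins2 (adjusted p = 0.076 or 0.12 by edgeR) and for Orc6 (adjusted p = 0.10 or 0.15 by edgeR). Of 78 genes of cytosolic ribosomal proteins, 10 had EZH2 alone, 1 was higher and 52 of the 76 tested were lower, with a median log2 fold change of -1.14 beside -0.02 over all genes. Rps19 was at 10.5 and 12.2 TPM against 459 and 362 TPM. These genes have many processed copies, and counts may be split among them. Of 26 Ink4 and p53 target genes, 5 had EZH2 alone, with 0 higher and 12 lower of 26 tested.

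Of collagen genes 17.1% and of imprinted genes 15.8% had a peak, near the 18.2% of all genes, and of interferon-stimulated genes 5.71%. Of 35 interferon-stimulated genes, Tap1 and Psmb9, whose starts overlap on opposite strands and share 1 EZH2 position, had EZH2 alone, and they rose by 1.06 and 1.55 on the log2 scale in a list with 8 higher and 9 lower of 30 tested. The call of Psmb9 was lost with DESeq2 (adjusted p = 0.061). Of 41 collagen genes, 6 had both targets, among them Col2a1, Col13a1, Col23a1 and Col26a1, all at 0.25 TPM or less in ATRX KD, and 5 collagen genes were higher and 10 lower of 28 tested. Of 38 imprinted genes, 1 had both targets (Ppp1r9a), 2 had EZH2 alone and 3 had H3K27me3 alone, with 8 higher and 9 lower of 27 tested. Mcts2, an imprinted retrogene with H3K27me3 alone and 1 overlapping gene, was at 34.7 and 39.9 TPM against 20.2 and 17.3 TPM (log2 fold change 0.77; adjusted p = 0.028 by edgeR, and 0.18 without ATRX KD replicate 2). Among the fibroblast markers, Pdgfra and Thy1 had H3K27me3 alone, and Pdgfra, with 1 overlapping gene, was at 11.8 and 11.9 TPM, so H3K27me3 was called at the TSS of an expressed gene.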

How the data were processed

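EZH2 and H3K27me3 CUT&RUN and RNA-Seq of MEFs were used. The authors mapped CUT&RUN reads to mm10 with Bowtie2 and ran MACS2 in broad mode on every library on its own, at a broad cutoff of 0.1. For each peak the authors deposited a fold enrichment (a ratio to local background), its −log10 p, its −log10 q and a score that was not used. The authors aligned RNA-Seq reads with STAR and obtained the deposited estimated counts and the deposited TPM values with RSEM. Depth cannot be read from peak lists, so fold and q were not read as differences between lists, although positions and genes were ranked by the smallest −log10 q over their lists. The labels name the EZH2 antibody as Cell Signaling and the H3K27me3 antibody as Active Motif, as the study's methods do, while its supplementary antibody table differs for H3K27me3. The IgG libraries were not analysed here.

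The coordinates of kept positions are those of replicate 1. Where a position or gene is said to hold or lack a target in WT, or in either cell, reproducible positions are meant. Positions were placed with GENCODE M21 (55450 genes, 21938 protein-coding) in windows of 2 kb on each side of the outermost start of a gene, and sequence was read from GRCm38. Of 53801 RNA-Seq gene identifiers, 53620 were in the annotation. Estimated counts were rounded, genes with more than 10 counts in total were kept, and 2 ATRX KD libraries were tested against 2 WT libraries with the quasi-likelihood test of edgeR 4.0.16 in R 4.3.3 with Benjamini-Hochberg adjustment over all genes tested. At least N-fold statements take 3 counts per library as the floor and cover counting error only. DESeq2 1.42.0 and other filters, windows, overlaps and designs were alternatives. Python 3.11.15 with numpy 2.4.6, pandas 2.3.3, scipy 1.17.1 and matplotlib 3.10.9 did the rest. The interval, word and count steps were tested on simulated data.

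Named genes were the 8 of each class with the largest −log10 q, the genes at the 5 widest positions, up to 4 of each gene list with peaks, the 5 of each class with the smallest adjusted p in each direction, Atrx and the PRC2 genes, and the text gives part of these. The widest positions with H3K27me3 in WT were added after the data were seen. Positions, gene lists and tests were chosen with earlier results of these data known. Some items withheld for evaluation are not reported here.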

Additional observations from a re-analysis of the deposited data

Results flagged for a closer look

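Against WT, EZH2 and H3K27me3 moved in opposite directions in 2 shares. The share of peaks that overlap the other target changed by -9.49 percentage points for EZH2 and by 3.15 for H3K27me3, as the difference of means over 2 lists each. The share of peaks on the X chromosome changed by 0.438 percentage points for EZH2 and by -3.95 for H3K27me3. In each of these cases every ATRX KD list of a target lay on the same side of both WT lists, on opposite sides for the 2 targets. The difference between the targets was not tested. The number of peaks moved with these shares, with 5376 and 7093 EZH2 peaks in ATRX KD against 22316 and 18351 in WT, and 7241 and 6336 H3K27me3 peaks against 36011 and 38832, and its part in the result was not tested.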

How the results depend on the processing

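EZH2 positions were narrower and more often at TSSs than H3K27me3 positions under the alternatives run. Under them, genes with EZH2 alone also had the highest median level of the 3 classes with peaks. Of the 64 named genes that were called, all 64 kept their direction and 46 stayed called in every setting that tested them. Some genes were not tested in every setting, and the setting with a log2 change of 1 or more was left out of this count. Values that moved by more than the spread between lists are as follows. With a q-value of 0.01 or less, EZH2 had 2653 and H3K27me3 627 positions, H3K27me3 was 1033 bp wide with 48.2% at TSSs, the overlap was 8.07% of EZH2 and 33.7% of H3K27me3 positions, 113 genes had both targets and 139 H3K27me3 alone, and the median TPM was 0.045 with both, 31.3 with EZH2 alone and 0.02 with H3K27me3 alone. When 50% of a position had to be covered in replicate 2, H3K27me3 was 850 bp wide with 38.7% at TSSs, the EZH2 overlap was 11.8%, and the median TPM was 34.0 with EZH2 alone and 0.01 with H3K27me3 alone. With coordinates of replicate 2, the widths were 514 and 899 bp and the EZH2 alone median 35.1 TPM. When 50% of a position had to be covered by the other target, the overlaps were 9.12% and 8.38%, so that EZH2 then had the larger share, and with a peak in either list of the other target 19.3% and 25.01%. TSS shares were 74.4% and 30.3% with protein-coding TSSs only, 32.1% for H3K27me3 by midpoint, and 76.2% and 25.8% in a window of 1 kb, where the EZH2 alone median was 34.5 TPM. CPM per kb of exon gave medians of 0.0076 with both and 8.17 with EZH2 alone, and genes with more than 10 counts gave 0.62 TPM with both, 39.6 with EZH2 alone and 0.82 with H3K27me3 alone, so that the order of the classes with H3K27me3 turned. Chosen after seeing the data, a split by H3K27me3 in WT gave 0.245 and 40.5 TPM for EZH2 alone and overlaps of 37.6% and 5.42% for EZH2, with and without it. With 1 list or library left out, the ranges were 5376 to 7093 EZH2 and 6336 to 7241 H3K27me3 positions, 418 to 448 and 741 to 750 bp, 72.2% to 74.5% and 25.8% to 26.9% at TSSs, overlaps of 9.97% to 16.1% and 9.20% to 22.3%, 527 to 568 genes with both, 2992 to 4864 with EZH2 alone and 340 to 764 with H3K27me3 alone, and medians of 0 to 0.0425, 35.35 to 37.87 and 0 to 0 TPM. Without H3K27me3 replicate 1 or 2, the genes with H3K27me3 alone numbered 678 or 764, and without EZH2 replicate 1 those with EZH2 alone numbered 4864. In tests left with 1 library in a group, that library was assumed to vary like the other group. Genes called ranged from 3194 to 8953 over all genes, from 90 to 115 with both targets, from 528 to 1853 with EZH2 alone and from 53 to 88 with H3K27me3 alone. Asking for 10 counts in every library left 43 calls with both targets and 28 with H3K27me3 alone, because fewer genes were tested, and requiring a log2 change of 1 or more left 2497 calls in all and 313 with EZH2 alone. DESeq2 called 4822 genes, size factors of DESeq2 in edgeR 5570, no filter 6605 and all 6 libraries in 1 fit 5250. Replicate numbers did not pair the samples (correlation of deviations -0.154), and the fit with the replicate number as a block called 5796 genes. A block with crossed numbers, chosen after seeing the data, called 6494. Other causes of these shifts were not tested.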
